A study of Mus musculus with 60 samples.

Results

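This comparison held 10 cortical libraries: 5 wild-type (WT) female mice given lithium and 5 WT female mice given vehicle, of 60 libraries in the series. They were chosen by the genotype, drug and sex in their titles. The comparison was kept to females because the vehicle male libraries form a cluster of their own in the measured values. All 10 mice were C57BL/6J, carried no K228E allele of Tbr1, and received the drug or vehicle with their mother's milk from postnatal day 3 to day 24, before prefrontal cortex was taken on day 25. For setting beside them, the series also holds 5 lithium and 5 vehicle libraries from WT males and from HT females, which carry 1 K228E allele. The question the design puts here is what early lithium exposure does to the cortex of mice with normal Tbr1, which encodes a T-box factor that shapes the identity of deep cortical layers. The labels name no litter, dam or dose, and nothing says that the mice came from separate litters, so a p-value here reflects sample-to-sample spread and no more.

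Lithium is a mood stabiliser. It inhibits glycogen synthase kinase 3 (GSK3), which in the Wnt pathway marks beta-catenin for destruction, and it inhibits inositol monophosphatase, which regenerates the free inositol that phosphoinositide signalling uses. Wnt signalling also switches on its own inhibitors, such as Axin2 and the naked cuticle protein Nkd1, and neurons switch on immediate early genes such as Fos within minutes of firing.

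The 1 gene called was a Wnt inhibitor, Nkd1. For it and for the immediate early genes Fosb, Fosl2 and Atf3, none of which was called, the stretch around 1 transcription start is shown. Each of the 4 stretches holds 250 bases before and 50 after that start (RefSeq, GRCm38.p6). The Nkd1 stretch lies at chr8:88527383-88527682 on the plus strand, that of Fosb at chr7:19309996-19310295 on the minus strand, that of Fosl2 at chr5:32136222-32136521 on the plus strand and that of Atf3 at chr1:191183284-191183583 on the minus strand. In the GENCODE annotation Nkd1 begins at 88521354, Fosl2 at 32135801 and Atf3, on the minus strand, at 191218039. The stretches of these genes thus lie inside the annotated genes, and other starts were not looked at. Capitals mark TGACG on either strand, the core of the element that cAMP- and calcium-activated CREB proteins bind.
Nkd1: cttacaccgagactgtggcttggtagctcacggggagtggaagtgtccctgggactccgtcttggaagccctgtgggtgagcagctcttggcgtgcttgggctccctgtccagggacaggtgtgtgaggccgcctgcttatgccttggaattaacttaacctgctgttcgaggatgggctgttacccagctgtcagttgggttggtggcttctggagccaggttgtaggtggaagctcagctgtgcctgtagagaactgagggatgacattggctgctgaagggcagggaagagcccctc
Fosb: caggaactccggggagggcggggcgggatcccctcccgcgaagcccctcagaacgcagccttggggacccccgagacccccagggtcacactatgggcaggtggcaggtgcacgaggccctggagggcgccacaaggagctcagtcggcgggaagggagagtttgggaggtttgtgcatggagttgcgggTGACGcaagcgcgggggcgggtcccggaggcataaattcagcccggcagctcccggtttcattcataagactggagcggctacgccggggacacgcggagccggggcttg
Fosl2: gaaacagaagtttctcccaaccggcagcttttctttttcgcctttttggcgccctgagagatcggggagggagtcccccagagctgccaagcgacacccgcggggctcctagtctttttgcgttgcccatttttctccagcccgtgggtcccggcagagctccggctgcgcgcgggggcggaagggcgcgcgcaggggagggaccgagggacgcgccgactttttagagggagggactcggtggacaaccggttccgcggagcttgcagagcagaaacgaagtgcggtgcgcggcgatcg
Atf3: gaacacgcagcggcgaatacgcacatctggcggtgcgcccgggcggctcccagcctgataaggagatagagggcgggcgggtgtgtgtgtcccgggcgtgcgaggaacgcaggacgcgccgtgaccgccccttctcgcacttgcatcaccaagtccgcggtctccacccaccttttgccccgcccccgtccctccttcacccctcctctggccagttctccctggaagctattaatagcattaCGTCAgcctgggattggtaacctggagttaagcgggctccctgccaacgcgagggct
Fosb held TGACG once and Atf3 held it once in the reverse orientation (CGTCA), and Fosl2 held none. Of 32851 promoters, 20.81% held it at least once. The full element TGACGTCA, found in 1.79% of promoters, was in none of the 4 stretches. The Nkd1 stretch held neither CTTTG, the core that TCF/LEF proteins bind (53.93% of promoters), nor CTTTGAT (3.729%), nor TGACG. A match is a description of the letters only, and the absence of one covers this window only.

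Each value is a gene's reads scaled by the library's size factor, called normalised reads here. The lithium libraries held 28721613 to 33982038 reads and the vehicle libraries 26706370 to 33297146. The libraries of the 2 groups correlated at 0.967 to 0.991. Cortical markers were present in all 10, with the 8 layer 5 neuron genes (such as Fezf2 and Crym) summing to 14430 to 20193 under lithium and 13564 to 17858 under vehicle. In all, 3 lithium libraries stood apart in markers of neighbouring tissue or of vessels. The 7 olfactory bulb markers summed to 15813, 1345, 13634, 6197 and 1268 in lithium replicates 1 to 5, against 14542, 19186, 22899, 6287 and 9658 in vehicle replicates 1 to 5, so lithium 2 and 5 held the least. None of the 7 was at 0 in any library. The 12 striatal markers, such as Ppp1r1b and Tac1, summed to 27440 in lithium 2 and to 6474 to 7897 in the other 9, and the 10 endothelial markers summed to 15131 in lithium 3 and to 11695 to 14221 in the others. In bulk tissue, fewer cells of a type and less RNA per cell cannot be told apart.

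**Figure D1:**
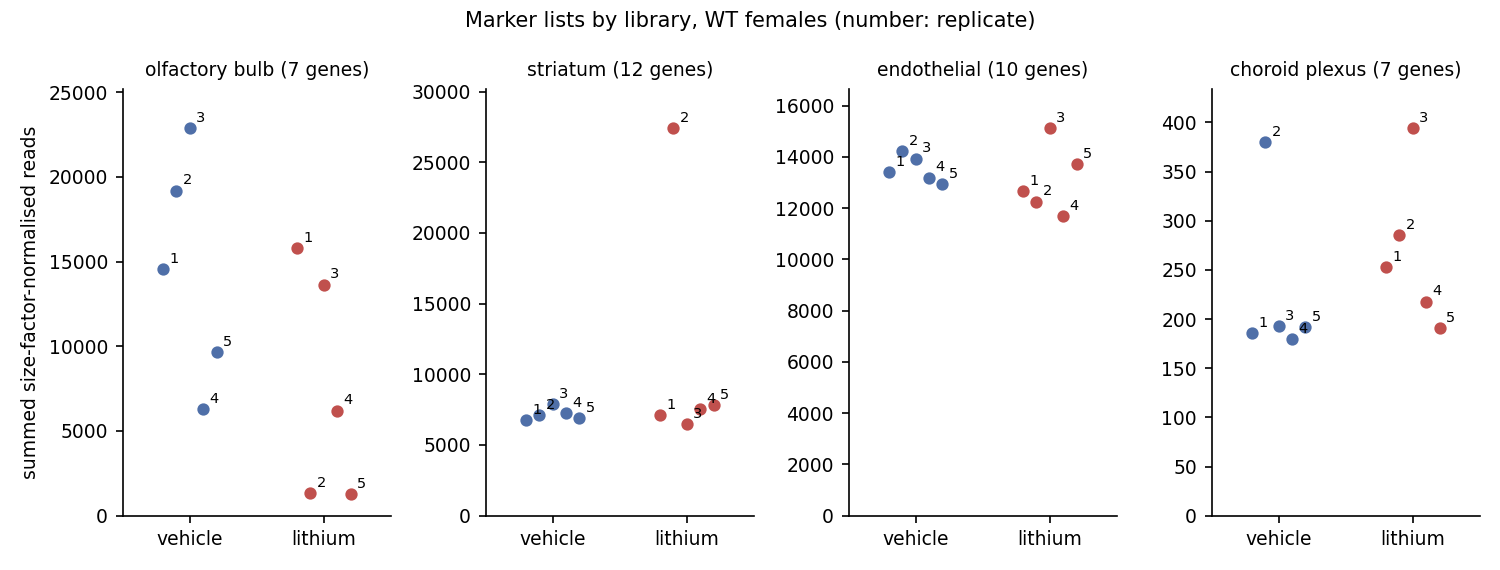
Summed normalised reads (vertical axes, linear from 0) of 4 marker lists in the 5 vehicle and 5 lithium libraries of WT females, 1 point per library with its replicate number. Lithium 2 and 5 are lowest for the olfactory bulb, lithium 2 alone is high for the striatum at 27440, and lithium 3 is the highest for endothelial cells at 15131.

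Lithium gave 1 gene past the threshold, and it was lower. Nkd1, which binds Dishevelled and dampens Wnt signalling, was at 604, 556, 623, 516 and 475 normalised reads in the 5 lithium libraries and at 757, 776, 731, 683 and 719 in the 5 vehicle libraries. Every lithium library was below every vehicle library. The means were 555 ± 61.3 and 733 ± 36.1 (SD, n = 5 each), and Nkd1 fell by 0.41 on the log2(value + 1) scale (SE 0.074, limma adjusted p = 0.0237). With limma across 17781 genes, this 1 call was 0.00562% of the genes tested, and 2012 genes (11.3%) had an unadjusted p below 0.05, 934 higher (5.25%) and 1078 lower (6.06%). Nkd1 (ENSMUSG00000031661) is a protein-coding gene on chromosome 8, 88521354 to 88594884 on the plus strand of GRCm38, and shares its strand there with the predicted gene Gm45496, so reads of the shared part cannot be told apart.

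The means of the 2 groups lay at the ends of the series' range for Nkd1, which picking this gene by its p in these libraries favours. Among the 12 groups of the series, WT vehicle females had the highest Nkd1 mean and WT lithium females the lowest, while the other 10 group means ran from 577 to 682. Of the 50 other libraries, 2 were above the lowest WT vehicle female value. In HT females, which share no library with these, the lithium difference in Nkd1 was -0.20 (limma adjusted p = 0.525), and in WT males it was -0.02 (adjusted p = 0.836). The WT and HT females did not differ from each other in this at the threshold, with 0 genes passing limma for that difference and 380 (2.14%) at an unadjusted p below 0.05, Nkd1 not among these at an unadjusted p of 0.054. In leaving out 1 library at a time, 0 genes passed limma without lithium 2, 4 or 5 or vehicle 1, 3 or 5 (1054 to 2654 at an unadjusted p below 0.05), and 49 passed without lithium 3. Nkd1 lost its call in 7 of the 10 such fits, also without vehicle 2 (adjusted p = 0.0889), where 1 other gene passed, so the call rests on single libraries. It was also lost, with 0 genes passing limma, with only the 10 libraries compared (Nkd1 adjusted p = 0.443), with the 30 F libraries (0.118) and with striatum and choroid plexus covariates (0.0985). The count was 1 with edgeR, 38 with DESeq2 (14 higher, 24 lower), 3283 with library quality weights and 11 with covariates for the olfactory bulb list.

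**Figure D2:**
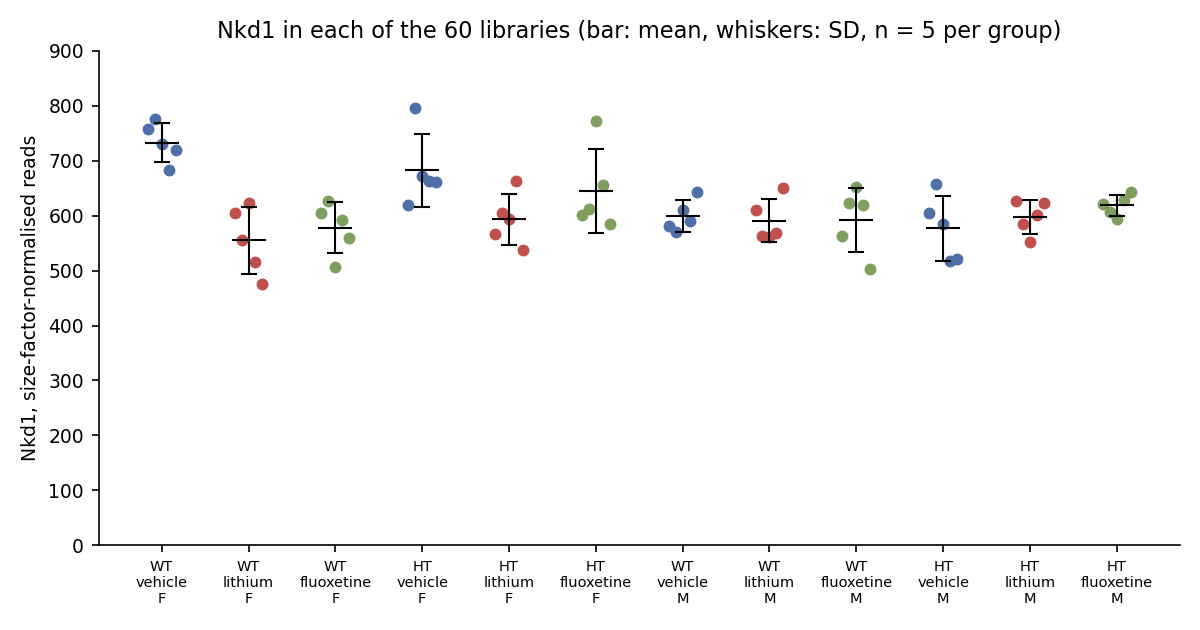
Normalised reads of Nkd1 (vertical axis, linear from 0) in each of the 60 libraries, grouped by genotype, treatment and sex, with the mean as a bar and the SD as whiskers (n = 5 per group). The WT vehicle females, at 683 to 776, lie above the 5 WT lithium females, at 475 to 623.

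Below the threshold, the 24 genes with the smallest p in each direction (12 and 12, mean of at least 50) show the shape of the comparison. Of them, 10 of the 12 higher and 7 of the 12 lower genes had groups that did not overlap, where 0.714% and 0.613% of all genes tested did so, but these genes were picked by their p. Only Nkd1 was called by limma, and the other adjusted p-values ran from 0.0798 to 0.168. DESeq2 called 10 of the higher and all 12 of the lower genes, where it called 0.0787% of all genes tested as higher and 0.135% as lower. It ran on reads of the same libraries by whose p these genes were picked, so this is no separate support. In the annotation Nampt overlaps Gdap10 and Ntrk2 overlaps C630044B11Rik on the same strand, Wipf3 overlaps Scrn1 on the other, and how the counting treated strand is not given in the sources used here. For 6 of the higher genes WT vehicle females had the lowest mean of the 12 groups of the series, and for 9 of the lower genes the highest, which picking by p on these vehicle values favours.

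Several of the lower genes belong to vessels. Cldn5, the tight junction claudin of the blood-brain barrier, was at 979, 864, 1260, 1002 and 1220 under lithium and at 1538, 1334, 1691, 1367 and 1350 under vehicle. The groups did not overlap, and the log2 difference was -0.46 (SE 0.10, adjusted p = 0.0798). Aplnr, the apelin receptor of sprouting endothelium, was at 79.1, 43.2, 157, 61.0 and 50.2 under lithium and at 232, 207, 203, 180 and 150 under vehicle. Lithium 3 alone reached the vehicle range, and the difference was -1.45 (SE 0.33, adjusted p = 0.0862). Pcdh12, an endothelial protocadherin, was at 21.2 to 48.4 under lithium and at 59.9 to 88.4 under vehicle (-1.24, SE 0.29, adjusted p = 0.0981). Tie1, an endothelial receptor tyrosine kinase, was at -0.32 (adjusted p = 0.102), with lithium 3 at 559 and the other lithium libraries at 383 to 442, against 509 to 585 under vehicle. In each of these 4 genes lithium 3 was the highest lithium library, the one with the most endothelial marker reads.

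The endothelial list fixed for this comparison was mixed. Of its 10 measured members 5 were lower at an unadjusted p below 0.05 (Cldn5, Pecam1, Cdh5, Tek and Itm2a) and 1 was higher (Ly6c1). None was called, and over all genes tested 6.06% were lower and 5.25% higher at that p. The list's median difference was -0.10, beside 0.0077 over all genes tested. Pecam1, an adhesion protein of endothelial junctions, was at -0.25, Cdh5, the cadherin of those junctions, at -0.28 and Itm2a at -0.25. Of the 8 pericyte and smooth muscle genes, 2 were lower at an unadjusted p below 0.05, with the pericyte gene Rgs5 at -0.38 and the PDGF receptor gene Pdgfrb at -0.14. Without lithium 3, limma called 42 genes (0.236%) as lower, all 12 of the lower genes above and Rgs5 among them. Those 12 were picked by their p with libraries that this fit shares, which favours such calls. Cldn5 was at -0.52, Aplnr at -1.74, Tie1 at -0.40 and Pcdh12 at -1.42 in this fit. Leaving out the highest lithium library of these 4 genes enlarges their differences, and no other of the 10 leave-one-out fits gave larger ones. At the other end of those fits they were at -0.39, -1.28, -0.27 and -1.13, with limma adjusted p up to 0.376. In WT females 7 of the 10 endothelial genes were negative, beside 8501 of 17781 genes tested. In HT females 9 of the 10 were negative (8381 of 17781 genes tested), with a median of -0.10. At an unadjusted p below 0.05, 0 of the 10 were lower and 1 higher in HT females. Of the 8 pericyte and smooth muscle genes 4 were lower and 0 higher there, beside 4.2% and 5.31% of all genes tested. In WT males the endothelial median was 0.18, and 0.19 for Cdh5.

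Other lower genes have roles in growth control and precursor cells. Nes, the intermediate filament nestin of neural precursors and vessels, was at 371, 309, 562, 257 and 304 under lithium and at 699, 626, 615, 642 and 525 under vehicle. Only lithium 3 reached into the vehicle range, and the difference was -0.83 (SE 0.18, adjusted p = 0.0798). Ajuba, a LIM scaffold of the Hippo pathway, was at 55.6 to 77.1 under lithium and at 87.9 to 120 under vehicle (-0.57, SE 0.12, adjusted p = 0.0798). Wwtr1, the Hippo-regulated coactivator TAZ, was at -0.38 (adjusted p = 0.111), with overlap. Kctd7, linked to potassium conductance, was at 376 to 422 against 460 to 513 (-0.28), Bcl7c, a chromatin remodelling subunit, at 386 to 438 against 459 to 540 (-0.27), and Nampt, the rate-limiting enzyme of NAD salvage, at 1373 to 1568 against 1649 to 1796 (-0.18). All 3 separated the groups at an adjusted p of 0.0798. The orphan receptor Gpr153 was at -0.56 (adjusted p = 0.102), with overlap.

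Among the higher genes, Wipf3, an actin regulator that binds WASP proteins, was at 5445, 6173, 4924, 4744 and 5496 under lithium and at 4248, 4294, 3975, 4290 and 4324 under vehicle. The groups did not overlap, and the difference was 0.34 (SE 0.073, adjusted p = 0.0798). Nras, a small GTPase of growth factor signalling, was at 1719 to 2260 under lithium and at 1471 to 1646 under vehicle (0.31, adjusted p = 0.0798). Map3k6, a stress-activated kinase, was at 121 to 143 against 42.5 to 92.1 (0.97, SE 0.22, adjusted p = 0.0798). Thbs4, a thrombospondin, was at 75.4 to 149 in 4 lithium libraries and 49.96 in lithium 4, and at 11.1 to 40.6 under vehicle, a difference of 1.82 (SE 0.46, adjusted p = 0.136). The groups did not overlap in any of these 3 genes. Ntrk2, the receptor for brain-derived neurotrophic factor, was at 20772 to 21929 against 16437 to 19789 (0.23, adjusted p = 0.136), and its ligand gene Bdnf was at 0.14 (adjusted p = 0.751). Igfbp3, which binds insulin-like growth factors, was at 0.43, Ccdc6 at 0.28, the zinc finger gene Zfp322a at 0.18, Paqr5 at 0.70, the synaptic adhesion gene Lrfn2 at 0.55 and the sulfotransferase gene Chst2 at 0.26, with adjusted p from 0.119 to 0.168.

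**Figure D3:**
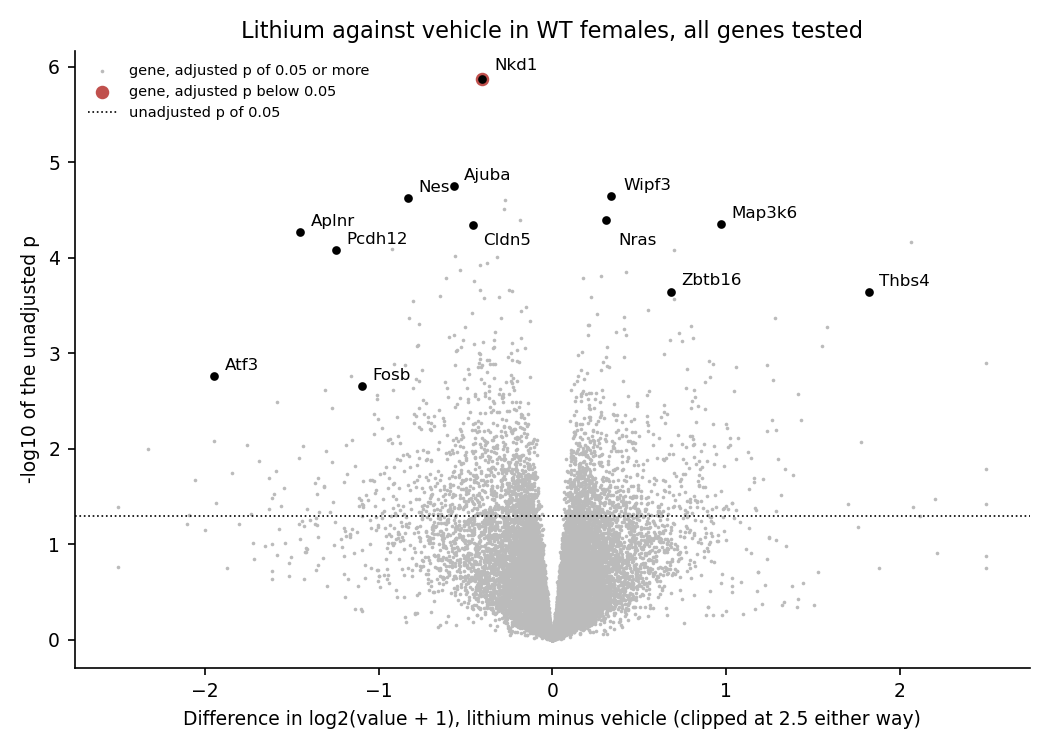
Difference in log2(value + 1), lithium minus vehicle (horizontal axis, with the few larger differences drawn at its ends), against -log10 of the unadjusted limma p (vertical axis) for the 17781 genes tested in WT females. Nkd1, ringed, is the one gene with an adjusted p below 0.05, and 2012 genes lie above the dotted line at an unadjusted p of 0.05.

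Immediate early genes had mostly negative differences, without any single call. Of 21 measured activity-regulated genes, 19 had a negative difference, 12 were lower at an unadjusted p below 0.05 and 0 were higher, and 4 had groups that did not overlap. Over all genes tested 6.06% were lower at that p and 0.613% lower without overlap. The median difference was -0.65, beside 0.0077 over all genes tested. With DESeq2 and edgeR none of the 21 was called, like limma.

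Atf3, a stress-induced bZIP transcription factor, was at 64.4, 22.6, 45.6, 22.9 and 15.1 under lithium and at 130, 83.3, 349, 69.8 and 84.7 under vehicle. The groups did not overlap, vehicle 3 was far above the rest, and the difference was -1.95 (SE 0.59, adjusted p = 0.247). Fosb, which pairs with Jun proteins in AP-1, was at 482, 416, 467, 307 and 268 under lithium and at 783, 584, 1337, 700 and 813 under vehicle (-1.10, SE 0.34, adjusted p = 0.268). Fosl2, another AP-1 member, was at 900 to 1596 under lithium and at 1661 to 4204 under vehicle (-1.01, SE 0.32, adjusted p = 0.277). In these 3 genes every lithium library was below every vehicle library. Atf3 and Fosb were highest in vehicle 3 and, under lithium, in 1 and 3. Those libraries held the most bulb marker reads of their groups (22899, 15813 and 13634). Vehicle 2, with 19186 such reads, was only at 83.3 and 584 for these genes. The part of the bulb in these differences was not tested beyond the covariate fit below. Fos was at 658, 1032, 765, 572 and 471 under lithium and at 1109, 884, 1713, 1605 and 1725 under vehicle (-1.01, adjusted p = 0.275), where lithium 2 and vehicle 2 crossed. Jun, named after its values were seen, was at 1294 to 1495 against 1497 to 1826 (-0.22, adjusted p = 0.399).

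Differences were smaller or positive for some members. Egr1, a zinc finger factor of synaptic plasticity, was at 5425 to 10158 under lithium and at 4034 to 9978 under vehicle, a difference of -0.20 (adjusted p = 0.709), and Bdnf was at 758 and 772 in lithium 2 and 5 and at 505 to 598 in the other lithium libraries. With the bulb covariates 9 of the 21 were lower at an unadjusted p below 0.05 (5.5% of all genes tested) and the median was -0.47. Without lithium 2 and 5, 10 of the 21 were lower (2.07% of all genes) and the median was -0.70. In HT females 3 of the 21 were lower and 2 higher at that p (4.2% and 5.31% of all genes), the median was -0.36 and Atf3 was at -1.54. In WT males limma called 14 of the 21 as lower, where 23.7% of all genes tested were called lower, and the vehicle males form a cluster of their own, so treatment and cluster cannot be told apart there.

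**Figure D4:**
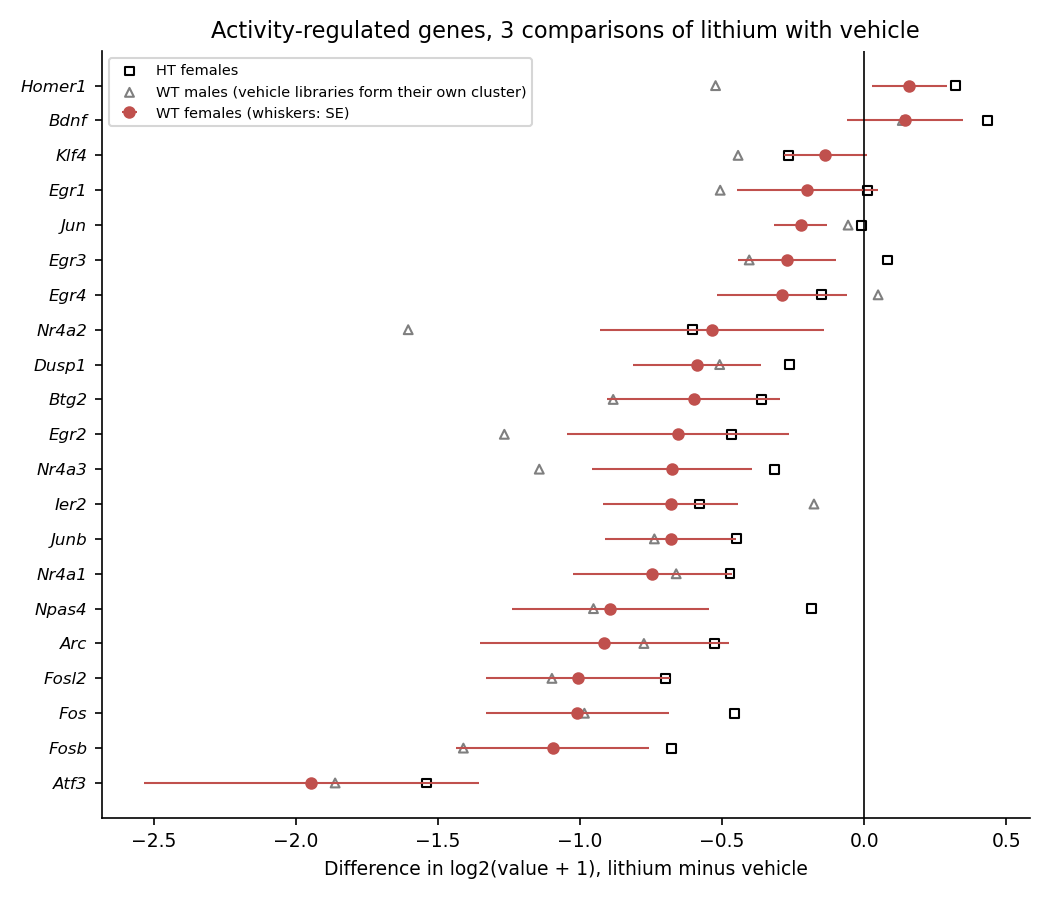
Difference in log2(value + 1), lithium minus vehicle (horizontal axis), for the 21 activity-regulated genes, as red circles with the SE as whiskers in WT females, open squares in HT females and open triangles in WT males. In WT females 19 of 21 lie below 0, from Atf3 at -1.95 upward.

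Genes that glucocorticoids or FOXO factors switch on were mostly at higher values, with none called. Of 17 measured, 8 were higher and 3 lower at an unadjusted p below 0.05, beside 5.25% and 6.06% of all genes tested. In 3 the groups did not overlap, all higher, beside 0.714% of all genes. The median difference was 0.25. Zbtb16, a glucocorticoid-induced transcriptional repressor, was at 979, 1261, 1203, 1184 and 1376 under lithium and at 912, 842, 467, 765 and 823 under vehicle (0.68, SE 0.17, adjusted p = 0.136). Tsc22d3, which encodes the glucocorticoid-induced leucine zipper, was at 2066 to 2423 under lithium and at 1528 to 2002 under vehicle (0.41, adjusted p = 0.219). Mt1, a metallothionein, was at 3746 to 4337 against 2960 to 3717 (0.30, adjusted p = 0.275), and the sulfotransferase gene Sult1a1 was at 0.77 with overlap. All 3 lower members, Per1, Cdkn1a and Depp1, overlapped between the groups. In HT females the same list had a median of -0.07, with Mt1 at -0.07, Tsc22d3 at 0.05 and Zbtb16 at 0.44. In WT males its median was 0.26, and limma called 7 of the 17 higher and 1 lower, beside 4359 and 4212 of 17781 genes tested. The vehicle males form a cluster of their own, so treatment and cluster cannot be told apart there.

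**Figure D5:**
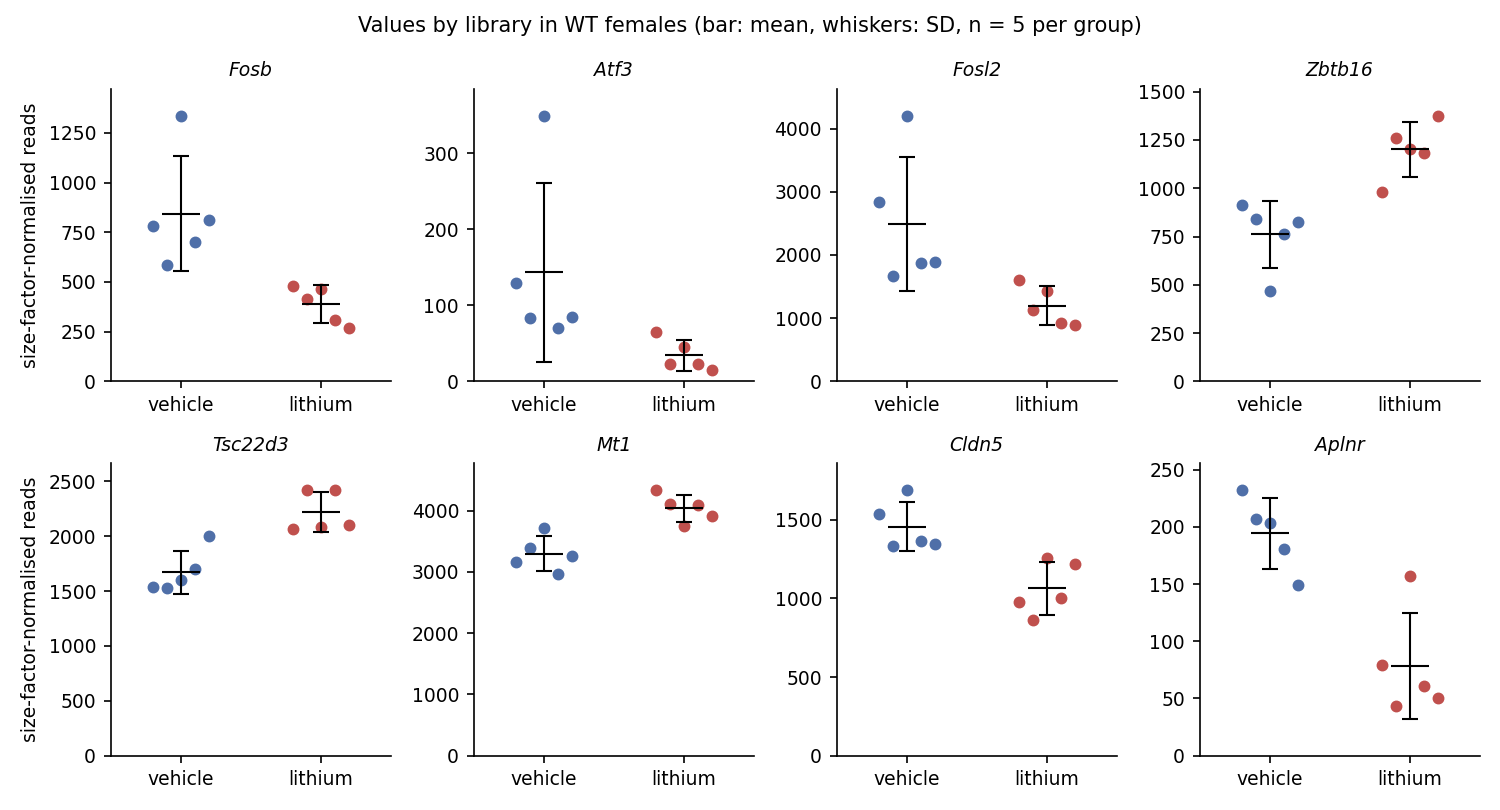
Normalised reads (vertical axes, linear from 0) of 8 genes in the 5 vehicle and 5 lithium libraries of WT females, with the mean as a bar and the SD as whiskers. The groups do not overlap for the first 7 genes. For Aplnr 1 lithium library, at 157, lies within the vehicle range of 150 to 232.

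The genes of the enzymes that lithium acts on were not told apart from vehicle. Gsk3b was at 5964 ± 288 under lithium and 5524 ± 592 under vehicle (0.12, 95% interval -0.02 to 0.26, adjusted p = 0.473), and Gsk3a at 6242 ± 714 and 5709 ± 655 (0.13, interval -0.04 to 0.29, SD, n = 5 each). The inositol monophosphatase gene Impa1 was at 1699 ± 72.7 and 1699 ± 68.8, with an interval of -0.11 to 0.11 around a difference of 0, and Impa2 was at -0.10 (interval -0.36 to 0.17). Inpp1, an inositol polyphosphate phosphatase, was at -0.06 (interval -0.15 to 0.03), the bisphosphate nucleotidase gene Bpnt1 at -0.01 (interval -0.09 to 0.07) and the inositol transporter gene Slc5a3 at -0.10 (interval -0.28 to 0.08). Slc5a3 overlaps Mrps6 on the same strand, so reads there cannot be assigned to 1 of them. Of 17 measured inositol phosphate genes 0 had an unadjusted p below 0.05 in limma, beside 11.3% of all genes tested. The edgeR and DESeq2 fits called none, and the median was -0.05.

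Among 40 measured GSK3 and Wnt pathway genes 10 were lower and 0 higher at an unadjusted p below 0.05 (6.06% and 5.25% of all genes tested), Nkd1 the one called, with a median of -0.15. Axin1, the scaffold of the beta-catenin destruction complex, was at 621 to 769 under lithium and at 740 to 919 under vehicle (-0.23, adjusted p = 0.219). The R-spondin receptor gene Lgr4 was at -0.53 and Lef1, a TCF/LEF factor, at -0.43, both with overlap. Axin2, the Wnt-induced axin, was at 944, 758, 928, 679 and 768 under lithium and at 770, 895, 708, 796 and 727 under vehicle (0.06, interval -0.08 to 0.20). Of these inhibitors Nkd1 was lower and Axin2 was not told apart from vehicle. With the bulb covariates the list had 7 lower and 1 higher at that p (5.5% and 4.11% of all genes) and a median of -0.06, with Lgr4 at -0.17. Without lithium 2 and 5 it had 3 lower and 1 higher (2.07% and 2.06% of all genes). In HT females 8 of the 40 were lower and 0 higher at an unadjusted p below 0.05 (4.2% and 5.31% of all genes), with a median of -0.09.

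Clock genes went both ways, with 5 of 19 higher and 3 lower at an unadjusted p below 0.05, beside 5.25% and 6.06% of all genes tested. None was called, and the median was 0.03. Per2, a core repressor of the clock, was at 0.35 (adjusted p = 0.352), Per3 at 0.15, and the output factors Tef and Hlf at 0.18 and 0.28. Nr1d1, the REV-ERB repressor of the clock, was at 2195 to 3015 under lithium and at 2536 to 3250 under vehicle (-0.22, adjusted p = 0.409). It shares its locus with Thra on the other strand. With the bulb covariates limma called 11 genes (0.0619%), all lower, with Nr1d1 at -0.37 (SE 0.073, adjusted p = 0.0412), Gpr153 at -0.29, Nkd1 at -0.37 and the axon-shaping gene Slitrk1 at -0.22 among them. Slitrk1 was at 0.09 (adjusted p = 0.776) without the covariates, so its sign rests on them, and the predicted gene Gm19040, within Atg7, was at -0.75 without and -1.33 with them.

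Tbr1 itself was at 1862, 3772, 2139, 3195 and 3883 under lithium and at 2020, 1644, 1197, 3218 and 2894 under vehicle, a difference of 0.47 (SE 0.27, adjusted p = 0.469) within widely overlapping groups. It was lowest in libraries with many bulb marker reads, such as vehicle 3, and the difference was -0.13 with the bulb covariates. Astrocyte genes had a median of 0.01 over 12 members, but Aqp4, the water channel of astrocyte endfeet, was at -0.41 (adjusted p = 0.251) and Fabp7, a fatty acid binding protein of radial glia and bulb glia, at -1.44 (adjusted p = 0.349). Fabp7 was at 543 and 557 in lithium 2 and 5, the libraries with the fewest bulb reads, and at 1489 to 3617 in the other 3. The bulb gene Doc2g was at -1.72 and the striatal genes Tac1 and Ppp1r1b at 0.87 and 0.83, with lithium 2 at 1247 and 5643 and the other lithium libraries at 256 to 437 and 942 to 2190. The part of these tissues in the other differences was not tested beyond the covariate fits given.

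Synaptic and channel lists had medians slightly above 0, and medians near 0 with the bulb covariates. Over all genes tested 5.25% were higher and 6.06% lower at an unadjusted p below 0.05, for setting beside the counts here. Excitatory synapse genes had a median of 0.12 over 28 members, with 2 higher and 2 lower at an unadjusted p below 0.05, and presynaptic release genes a median of 0.17 over 25, with 1 higher. With the bulb covariates these medians were -0.05 and -0.06. Voltage-gated sodium channel genes had a median of 0.26 over 8 (0 at that p), potassium channel genes 0.10 over 21 (3 lower), inhibitory synapse genes 0.05 over 17 (2 lower) and monoamine receptor genes 0.20 over 21 (2 higher, 1 lower). The sodium pump and cation transport list, which handles the ions lithium resembles, had a median of 0.01 over 17, with 1 lower. The lists of migrating neuroblast genes (-0.56 over 8, 1 lower) and GABAergic interneuron genes (-0.11 over 12, 1 lower) lay below 0. The neuroblast median was 0.07 with the bulb covariates. Oligodendrocyte genes had a median of 0.24 over 12, 0 of them at that p, and 0.09 without lithium 2. Cholesterol synthesis (0.01 over 18, 1 lower), heat shock (0.02 over 10, none) and thyroid hormone genes (0.16 over 11, 2 higher and 1 lower) had no called member, nor had any of the lists in this paragraph.

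Nearby conditions were set side by side. In HT females 11 of the 12 higher and 11 of the 12 lower genes above had the same sign as in WT females. The share of all genes tested with the same sign in both was not computed, so these counts are no result about these genes. Of the 12 and 12, 6 and 3 had that sign at an unadjusted p below 0.05 in HT females. There 5.31% of all genes tested were higher and 4.2% lower at such a p. For 4 of the higher and 6 of the lower genes the WT and HT differences were unlike at an unadjusted p below 0.05, beside 2.14% of all genes tested, though picking the genes on the WT values favours this. The exceptions in sign were Paqr5 (-0.12) and Kctd7 (0.04). The bulb list was lower in HT females too, with a median of -1.22 beside -1.50 in WT females. Limma called 3 genes in HT females (0.0169%), of which Zfp322a, at 0.22 (adjusted p = 0.0437), is among the 24. In WT males limma called 8571 genes (48.2%), and for the difference between females and males 4942 (27.8%), but vehicle males stand apart, so sex and that cluster cannot be told apart.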

How the data were processed

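Prefrontal cortex RNA-seq of 60 mice, 5 in each of 12 groups, used a kit that keeps the strand of mRNA, per the labels. The authors deposited 1 signal per gene and library, reads divided by a size factor. Per the submitters' processing notes, which give no roles, Salmon 0.11.2, R 3.6.0, DESeq2 1.19.11 and GRCm38 were used. Dividing each column by its step returned whole reads (100% of values within 1e-06). Sex genes matched the labels in 60 of 60 libraries.

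Log2(value + 1) was tested in R 4.3.3 by limma 3.58.1 (mean-variance trend, all 60 libraries, 1 mean per group). Of 18088 genes, 17781 reached 10 in 5 or more libraries and were kept. Tests are two-sided. P-values were adjusted by Benjamini-Hochberg over all genes, with a threshold of 0.05, and the scale understates changes of low genes. As the values are not raw counts, edgeR 4.0.16 and DESeq2 1.42.0 on recovered reads are alternatives. Bulb covariates are the olfactory bulb list's mean log2 value and mean on the linear scale. Coordinates come from GENCODE. The members and lists were chosen with earlier results of these data known. Named genes are the 12 smallest p per direction with a mean of at least 50, up to 4 members per list, the lithium targets and the 5 leading genes of the bulb fit. Tests were checked on simulated data.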

Additional observations from a re-analysis of the deposited data

Results flagged for a closer look

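Among the 5 libraries of a group, 1 library lay far from the nearest other for 8 values of 210 checked, where chance gives about 1 in 20, so the number of such values is not above chance. In vehicle 3, Wipf3 (3975), Ccdc6 (1231) and Zbtb16 (467) were low, and this library also had the most olfactory bulb marker reads. In lithium 2, Impa2 (180) and Egr1 (10158) were high, as was the mean log2 value of the striatal list (10.4). In lithium 3, Cdh5 (729) was high, beside the highest endothelial sum, and in lithium 5 the mean log2 value of the neurotrophin list stood apart at 10.2.

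The lithium difference was not the same in WT females and WT males for 17 of 68 named genes (25%) by limma's interaction test, a share near the 27.8% of all genes tested and so no result about these genes. The female difference minus the male one (log2) was -0.386 for Nkd1, -0.243 for Kctd7, -0.565 for Gpr153, -0.679 for Nr1d1, -0.247 for Akt1, -0.427 for the ribosomal protein gene Rpl8 and -0.304 for Itpkb. For vessel genes it was -0.64 (Cldn5), -0.718 (Tie1), -0.473 (Cdh5) and -0.542 (Pdgfrb). It was positive at 0.318 for Nras, 0.665 for Zfp322a, 0.285 for Nampt, 0.188 for Inpp1, 0.343 for Pdia3 and 0.989 for mt-Atp8. All 10 vehicle male libraries form a cluster of their own, so the sexes and that cluster cannot be told apart.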

How the results depend on the processing

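The count of called genes (1) became 0 with only the 10 libraries compared, with the 30 F libraries, with striatum and choroid plexus covariates and without lithium 2 and 5 (an alternative chosen after seeing the data), 11 with bulb covariates, 38 with DESeq2, 3283 with library quality weights and 0 to 49 when each library was left out. Whether the replicate numbers pair the samples cannot be told from 5 pairs. Same-number correlations ran from -0.23 to 0.28, with 4 above 0.1, and 2 of 5 lithium libraries correlated best with their own number. With the replicate block 0 genes passed limma, and 2532 had an unadjusted p below 0.05, beside 1345 in the same 10 libraries without it. The count for females minus males (4942) was 7570 with bulb covariates and 4486 to 5128 with single libraries left out.

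Direction turned with bulb covariates for Tbr1 (-0.13), Gsk3a (-0.040), Impa1 (0.0090), Slitrk1 (-0.22) and Bdnf (-0.24), with quality weights for Impa1 (0.037), Bpnt1 (0.029) and Axin2 (-0.065), with striatum and choroid plexus covariates for Impa1 (0.0040), and without lithium 2 and 5 for Slitrk1 (-0.070) and Bdnf (-0.038). Leaving out single libraries gave Impa1 -0.014 to 0.026, Bpnt1 -0.033 to 0.022 and Slitrk1 -0.0024 to 0.18. The cause was not tested. Nkd1 stayed lower in each fit run.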

Other observations

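Mitochondrially encoded transcripts were mostly at higher values under lithium in WT females. Of 13, 12 had a positive difference and the median was 0.14. It was 0.05 with the bulb covariates and 0.08 without lithium 2 and 5. Of the 13, 1 was higher at an unadjusted p below 0.05 (5.25% of all genes tested) and none was called. mt-Atp8, a subunit of ATP synthase, was at 12855 to 15276 under lithium and at 10260 to 12178 under vehicle (0.31, limma adjusted p = 0.201), and it overlaps mt-Atp6. In HT females it was at 0.27 and the list's median was 0.18. In WT males that median was -0.47 and limma called 11 of the 13 lower (23.7% of all genes tested), but vehicle males form a cluster of their own.

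Endoplasmic reticulum chaperone genes were positive in 14 of 17, beside 9270 of 17781 genes tested, with a median of 0.09. Of them 3 were higher at an unadjusted p below 0.05 (5.25% of all genes). Pdia3, a disulfide isomerase of glycoprotein folding, was at 0.12 in WT and 0.14 in HT females, where 10 of the 17 were higher at that p (5.31% of all genes). In WT males the list's median was -0.05, and limma called 6 lower (23.7% of all genes) and 2 higher, but vehicle males form a cluster of their own. Microglial genes were positive in 12 of 12 with a median of 0.11, and 2 were higher at an unadjusted p below 0.05 (5.25% of all genes tested). Cytosolic ribosomal protein genes were negative in 72 of 81 with a median of -0.09, 7 of them lower at that p (6.06% of all genes tested). With the bulb covariates 0 of 81 were lower at that p (5.5% of all genes).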
